A study of Homo sapiens with 18 samples.

Results

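The genes described here are 35 genes of the G2 phase and of mitosis, picked by name from the deposited read counts of 23622 genes. All 35 were listed in the table, and 34 of them had enough counts to be tested, as had 15760 genes in all. They were measured in A2780 cells, a cisplatin-sensitive line from a human ovarian carcinoma, and in Acis cells, its cisplatin-resistant derivative, which were given 1 µM cisplatin every 3 passages to keep the resistance. Each line was left without treatment or was treated with 200 µM cisplatin for 3 h, and RNA-seq was performed on 3 replicates of each of the 4 groups. Acis is a single derived line, so a difference between the lines cannot be told apart from a difference between these particular cultures. ATAC-seq, which maps open chromatin, was available as 1 peak list for each of the 4 conditions.

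Cells enter mitosis when the kinase CDK1, bound to a B-type cyclin, is switched on by CDC25 phosphatases. Polo-like and Aurora kinases, kinesins and kinetochore proteins then build the spindle and attach the chromosomes, and the anaphase-promoting complex (APC/C) with CDC20 ends mitosis by marking cyclin B and securin for destruction. Most of these genes are repressed in G0 and G1 by the DREAM complex and activated in G2 by B-MYB and FOXM1, through a promoter element called the CHR (cell cycle genes homology region), often with CCAAT boxes bound by NF-Y. DNA damage delays entry into mitosis through checkpoint kinases and, more slowly, through p53 and p21. Because whole cultures were measured, fewer cells in G2 or mitosis and less RNA of these genes in each cell cannot be told apart.

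To show the elements that these genes share, promoter windows of 300 bases, from 250 before to 50 after the RefSeq start on GRCh38.p14, were matched by symbol for 30 of the 35 genes. AURKA, TPX2, TTK, UBE2C and BIRC5 had no match. The CHR was searched as the letters TTTGAA or TTCGAA and the CCAAT box as the letters CCAAT, each on both strands, and no CHR match overlapped a CCAAT match in these 30 windows. CHR letters were found in 22 of 30 windows (73.3%), against 11.1% of the 10430 windows of tested genes. CCAAT was also found in 22 of 30 (73.3%), against 37.3%, and 14 of 30 (46.7%) held at least 2 CCAAT matches, against 14.2%. Both kinds of letters occurred together in 18 windows (60%), against 4.87% of all windows. These are matches of letters and not measured binding sites. The 100 bases before the RefSeq start are printed 5′ to 3′ on the gene's strand for 6 genes, with matches in capitals, because they span the range from a CHR paired with CCAAT to neither.
CCNB2, chr15:59105046-59105145, + strand: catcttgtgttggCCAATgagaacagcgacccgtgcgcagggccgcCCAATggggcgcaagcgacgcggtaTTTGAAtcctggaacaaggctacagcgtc
PLK1, chr16:23678789-23678888, + strand: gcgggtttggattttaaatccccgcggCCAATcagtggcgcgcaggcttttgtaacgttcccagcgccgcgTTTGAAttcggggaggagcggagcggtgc
CDC20, chr1:43358881-43358980, + strand: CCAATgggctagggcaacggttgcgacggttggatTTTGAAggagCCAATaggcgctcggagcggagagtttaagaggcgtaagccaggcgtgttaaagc
KIF4A, chrX:70290004-70290103, + strand: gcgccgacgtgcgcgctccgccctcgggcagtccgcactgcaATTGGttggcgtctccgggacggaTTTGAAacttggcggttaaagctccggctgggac
CCNB1, chr5:69167050-69167149, + strand: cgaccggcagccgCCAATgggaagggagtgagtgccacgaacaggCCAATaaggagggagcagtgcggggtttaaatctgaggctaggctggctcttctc
CENPE, chr4:103198344-103198443, - strand: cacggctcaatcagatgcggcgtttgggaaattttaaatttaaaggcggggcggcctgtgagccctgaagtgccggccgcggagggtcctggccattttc
In CCNB2 and PLK1 the CHR letters began 29 bases before the start, in KIF4A 34 and in CDC20 65 bases before it. The CCNB1 window held 2 CCAAT matches, 87 and 55 bases before the start, and no CHR letters. The CENPE window held neither, as did those of CDC25B, CDC25C and KIF2C.

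Total counts per library ranged from 4130644 to 5072216, and the 35 genes took 0.494 to 0.498% of them in untreated and 0.445 to 0.475% in treated A2780 libraries, and 0.522 to 0.536% in untreated and 0.49 to 0.498% in treated Acis libraries. Per kilobase of annotated exon, the median level of the 34 tested genes was 158 normalised counts, against 36.4 for all tested genes. CDC20 had the highest level per exon kilobase, with 319 normalised counts, and TPX2, a spindle assembly factor, followed with 318.5. NUSAP1, a spindle-associated protein, had 58 counts over all libraries together and was not tested, and 86.8% of its exon bases lay in exons of other genes on the same strand. PRC1, a bundler of spindle midzone microtubules, had 489 counts and shared 57.6% of its exon bases in this way. Reads that overlap more than 1 gene are not counted by htseq-count, so the values of these 2 genes are uncertain, although the part of the overlap was not tested. BUB1B shared 10.2% and CENPA 7.1% of their exon bases, and the others none. Of 9 epithelial and ovarian carcinoma markers, only KRT18, EPCAM and KRT8 were in the table, with summed counts per library of 36 to 55 in untreated and 50 to 68 in treated A2780 cells and of 127 to 141 in untreated and 148 to 160 in treated Acis cells, and KRT7, KRT19, CDH1, PAX8, WT1 and MUC16 were not. The 2 tested markers went opposite ways between the untreated lines, as KRT18 was higher in Acis (2.49 on the log2 scale, adjusted p = 7.85e-15) and KRT8 lower (-1.95, adjusted p = 0.000569). Of 8 markers of other cell types, PTPRC, CD3E, PECAM1 and VWF were not in the table, while ACTA2, COL1A1, CD68 and COL3A1 together had 2904 to 3472 and 2665 to 2960 counts per library in untreated and treated A2780 cells, and 3425 to 3789 and 3468 to 3622 in Acis cells. Single markers in this sum differed widely between the untreated lines. Mean normalised counts of ACTA2 were 543 in A2780 and 20 in Acis (-4.76 on the log2 scale), those of COL1A1 were 844 and 16.4 (-5.69) and those of COL3A1 were 1802 and 3944 (1.13). Their part in the results was not tested.

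In A2780 cells, 18 of the 34 tested genes fell after 3 h in cisplatin and 2 rose (adjusted p under 0.05). Over all tested genes, 28.2% fell and 21.2% rose, and over the 10898 genes with at least 50 counts per library, which is nearer to the level of these genes, 36.2% fell and 21.1% rose. The median log2 fold change was -0.24 for the 34 genes and -0.01 for all tested genes. In Acis cells 17 of the 34 fell and 0 rose by edgeR, with also 0 by DESeq2 and 0 at an unadjusted p under 0.05. Of all tested genes 12.4% fell and 9.35% rose there, and of those with at least 50 counts 16.8% fell and 9.75% rose. The median log2 fold change in Acis was -0.12, against 0.01 for all tested genes. None of the 34 reached an absolute log2 fold change of 1 in either line, a limit that 4.14% of tested genes passed upwards and 1.48% downwards in A2780, and 1.64% and 0.374% in Acis. Treated and control libraries did not overlap for 19 genes that were lower and 6 that were higher in A2780, against 31.1% and 26.2% of all tested genes, and for 19 lower and 0 higher genes in Acis, against 17.4% and 16.9%. The number that rose in A2780 depended on the processing. With total counts as library size, 10 rose and 15 fell, while the median of all tested genes moved to 0.10. With only genes of at least 50 counts in the fit, 8 of 33 tested genes rose and 18 fell, while the median of all genes was 0.01. The shares of all genes that rose or fell in these alternative fits were not computed. These counts therefore have no background beside them.

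**Figure D1:**
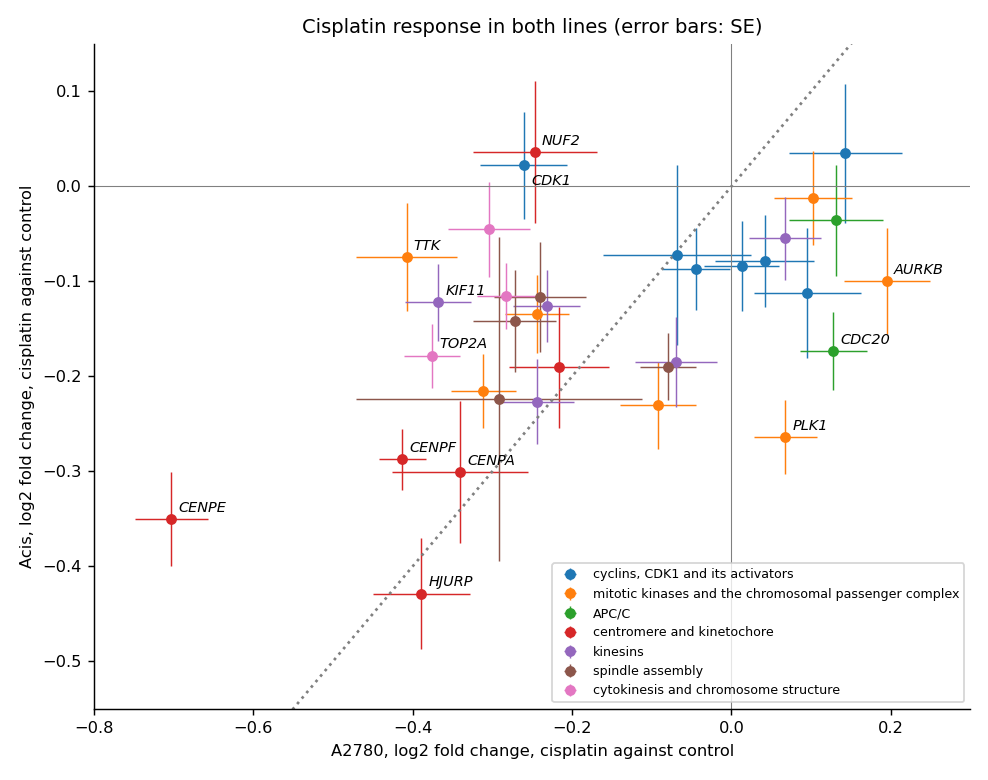
Log2 fold change of cisplatin against control in Acis (vertical axis) and in A2780 (horizontal axis) for the 34 tested genes, coloured by role, with standard errors and a dotted line of equal change. Most points lie below 0 on both axes, CENPE lies farthest to the left at -0.70, and PLK1, CDC20 and AURKB lie to the right of 0 and below it.

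The counts of the role groups, here and below, stand beside 28.2% of all tested genes that fell and 21.2% that rose in A2780. In Acis these shares were 12.4% and 9.35%. Of the 7 cyclins, CDK1 and its activators, 1 fell in A2780 and 0 rose, and in Acis 0 fell and 0 rose. Each 0 was also 0 by DESeq2 and at an unadjusted p under 0.05 by edgeR, as were the zeros of the other role groups below. CDK1, the kinase that drives entry into mitosis (chromosome 10, 60778331 to 60794852), had normalised counts of 606, 601 and 636 in the A2780 control libraries, 475, 539 and 525 in the A2780 cisplatin libraries, 499, 588 and 524 in the Acis control libraries and 548, 547 and 541 in the Acis cisplatin libraries. The A2780 cisplatin libraries lay below all A2780 controls, and the 2 Acis groups overlapped. The log2 fold change was -0.26 ± 0.05 (SE, n = 3 per group, adjusted p = 0.000254) in A2780 and 0.02 ± 0.06 (adjusted p = 0.848) in Acis. CCNB1, the cyclin partner of CDK1 at mitotic entry (chromosome 5, 69167135 to 69178245), had 649, 672 and 656 in the A2780 control libraries, 612, 703 and 682 in the A2780 cisplatin libraries, 681, 686 and 713 in the Acis control libraries and 651, 646 and 666 in the Acis cisplatin libraries. Its A2780 groups overlapped, and its Acis cisplatin libraries lay below the Acis controls. Neither difference passed the test, with log2 fold changes of 0.01 ± 0.05 (adjusted p = 0.846) in A2780 and -0.08 ± 0.05 (adjusted p = 0.237) in Acis. CCNB2, CCNA2, CDC25B, CDC25C and CKS2 did not pass the test in either line, with log2 fold changes between -0.07 and 0.14 in A2780.

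**Figure D2:**
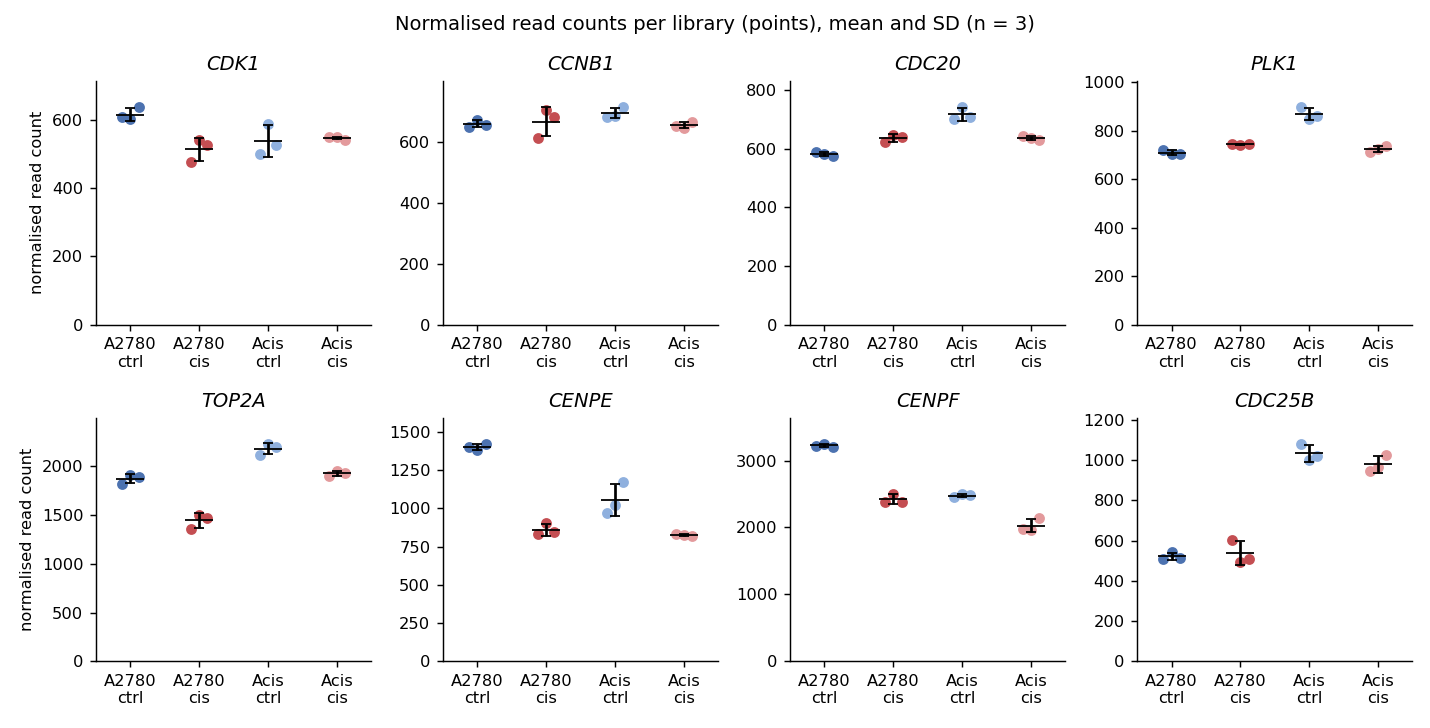
Normalised read counts of 8 genes in each library (points), with the mean and SD of the 3 replicates, in untreated (ctrl) and cisplatin-treated (cis) A2780 and Acis cells. The axes start at 0. CENPE and CENPF are lower in the treated libraries of both lines, CDK1 is lower in those of A2780, and CDC25B is higher in all Acis libraries.

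Of the 7 mitotic kinases and chromosomal passenger genes, 3 fell and 1 rose in A2780, and 4 fell and 0 rose in Acis. TTK, the kinase MPS1 of the spindle checkpoint, had 406, 429 and 405 in the A2780 control libraries, 292, 324 and 319 in the A2780 cisplatin libraries, 436, 501 and 500.3 in the Acis control libraries and 448, 477 and 439 in the Acis cisplatin libraries. The treated A2780 libraries lay below all controls, and the Acis groups overlapped. It fell by 0.41 on the log2 scale in A2780 (adjusted p = 5.21e-06), and its value in Acis was -0.07 ± 0.06 (adjusted p = 0.417). BUB1, another checkpoint kinase, had 861, 853 and 886 in the A2780 control libraries, 697, 750.3 and 748 in the A2780 cisplatin libraries, 835, 883 and 889 in the Acis control libraries and 794, 787 and 794 in the Acis cisplatin libraries, and fell in both lines, with log2 fold changes of -0.24 and -0.13. BUB1B, which encodes the checkpoint protein BubR1, also fell in both (-0.31 and -0.22).

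PLK1, which promotes mitotic entry and spindle assembly (chromosome 16, 23677656 to 23690367), moved otherwise. Its normalised counts were 722, 705 and 703 in the A2780 control libraries, 746, 744 and 745 in the A2780 cisplatin libraries, 898, 849 and 861 in the Acis control libraries and 712, 725 and 736 in the Acis cisplatin libraries. All treated A2780 libraries lay slightly above their controls, and all treated Acis libraries lay below theirs. The log2 fold change was 0.07 ± 0.04 in A2780, which did not pass the test (adjusted p = 0.186), and -0.26 ± 0.04 in Acis (adjusted p = 1.04e-05). AURKB, the kinase of the chromosomal passenger complex, had 353, 364 and 373 in the A2780 control libraries, 429, 401 and 416 in the A2780 cisplatin libraries, 405, 404 and 375 in the Acis control libraries and 375, 349 and 382 in the Acis cisplatin libraries. It rose in A2780 (0.20 ± 0.05, adjusted p = 0.00385) and in Acis had a value of -0.10 ± 0.06 (adjusted p = 0.26). The rise in A2780 did not pass with DESeq2. AURKA, the kinase of the spindle poles, fell in Acis (-0.23, adjusted p = 0.000449), and BIRC5, which encodes survivin, passed the test in neither line.

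CDC20, the activator of the APC/C (chromosome 1, 43358981 to 43363203), had 587, 583 and 574 in the A2780 control libraries, 621, 646 and 640.5 in the A2780 cisplatin libraries, 702, 741 and 707 in the Acis control libraries and 642, 635 and 629.6 in the Acis cisplatin libraries. The treated libraries lay above the controls in A2780 and below them in Acis, and both differences passed the test, at 0.13 ± 0.04 (adjusted p = 0.016) and -0.17 ± 0.04 (adjusted p = 0.0028). The rise in A2780 was lost under 5 alternatives. It did not pass with DESeq2, nor without A2780 control replicate 3 or A2780 cisplatin replicate 2. Nor did it pass with no filter on low counts or with the closest pair of replicates merged in each group. UBE2C, the ubiquitin-conjugating enzyme of the APC/C, had log2 fold changes of 0.13 and -0.04, and neither passed.

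All 6 genes of the centromere and kinetochore group fell in A2780 and 5 of 6 in Acis, against 28.2% and 12.4% of all tested genes. CENPE, CENPF and NUF2 had GENCODE lengths of 50 kb or more, where 61.7% of all tested genes fell in A2780 and 30.4% in Acis. CENPA, HJURP and NDC80 had lengths of 20 to 50 kb, where 25.4% and 6.35% fell. The part of length in this group was not tested. Of 26 other kinetochore and checkpoint genes, 11 fell in A2780 (42.3%) and 2 in Acis (7.69%). CENPE, a kinetochore motor that brings chromosomes to the spindle equator (chromosome 4, 103105349 to 103198445), had 1400.3, 1379.9 and 1423 in the A2780 control libraries, 829.9, 905 and 847 in the A2780 cisplatin libraries, 973, 1026 and 1173 in the Acis control libraries and 832, 829 and 822 in the Acis cisplatin libraries. Treated and control libraries did not overlap in either line. It fell by 0.70 ± 0.05 on the log2 scale in A2780 (adjusted p = 1.71e-12) and by 0.35 ± 0.05 in Acis (adjusted p = 6.59e-06). CENPF, a large protein of the outer kinetochore, had 3219, 3249 and 3207 in the A2780 control libraries, 2376, 2508 and 2385 in the A2780 cisplatin libraries, 2453, 2494 and 2481 in the Acis control libraries and 1973, 1969 and 2145 in the Acis cisplatin libraries, and fell by 0.41 in A2780 and 0.29 in Acis.

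CENPA, the histone H3 variant that marks centromeres, had 163, 159.6 and 157 in the A2780 control libraries, 113, 134 and 134 in the A2780 cisplatin libraries, 211, 228 and 213 in the Acis control libraries and 177, 169 and 184 in the Acis cisplatin libraries. HJURP, the chaperone that deposits CENPA, had 497, 446 and 478 in the A2780 control libraries, 347, 398 and 341 in the A2780 cisplatin libraries, 559, 544 and 548 in the Acis control libraries and 382, 416 and 429 in the Acis cisplatin libraries. Treated libraries lay below controls for both genes in both lines. The log2 fold changes were -0.34 in A2780 and -0.30 in Acis for CENPA, and -0.39 and -0.43 for HJURP, the lowest value among the 34 genes in Acis (adjusted p = 3.48e-06). NDC80, the core of the microtubule-binding complex, had 334, 362 and 374 in the A2780 control libraries, 295, 331 and 292 in the A2780 cisplatin libraries, 346, 358 and 388 in the Acis control libraries and 315, 326 and 314 in the Acis cisplatin libraries, and fell by 0.22 and 0.19. Its call in A2780 was lost with total counts as library size, and its call in Acis with total counts, with DESeq2 and without Acis control replicate 3 or Acis cisplatin replicate 1 or 3. NUF2, its partner in that complex, fell in A2780 (-0.25), though not with total counts or without A2780 cisplatin replicate 1, and had a value of 0.04 in Acis that did not pass the test.

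Of the 5 kinesins, 3 fell in A2780 and 4 in Acis. KIF11, the motor Eg5 that separates the spindle poles, had 1080.3, 1083 and 1081 in the A2780 control libraries, 785, 877 and 853 in the A2780 cisplatin libraries, 1053, 1133 and 1132 in the Acis control libraries and 998, 1022 and 1027 in the Acis cisplatin libraries, and its log2 fold changes were -0.37 in A2780 (adjusted p = 2.78e-08) and -0.12 in Acis (adjusted p = 0.0284). The call in Acis was lost with DESeq2, and without Acis control replicate 2 or 3 or Acis cisplatin replicate 1 or 2. KIF23, a motor of the central spindle, had 845, 770.3 and 804 in the A2780 control libraries, 679, 693 and 689.6 in the A2780 cisplatin libraries, 1009, 1043 and 1077 in the Acis control libraries and 951, 957 and 958 in the Acis cisplatin libraries, and fell by 0.23 and 0.13. KIF20A, needed for cytokinesis, had 561, 503 and 574 in the A2780 control libraries, 529, 506 and 524 in the A2780 cisplatin libraries, 717, 734 and 687 in the Acis control libraries and 643, 608 and 629.6 in the Acis cisplatin libraries, with a fall in Acis (-0.18) and overlapping groups in A2780. KIF4A, a chromosome-bound motor, fell in both lines (-0.24 and -0.23), and KIF2C passed in neither.

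Among genes of cytokinesis and chromosome structure, TOP2A, the topoisomerase that untangles sister chromatids (chromosome 17, 40388525 to 40417896), had 1819, 1907 and 1892 in the A2780 control libraries, 1356, 1502 and 1472 in the A2780 cisplatin libraries, 2113, 2228 and 2193 in the Acis control libraries and 1897, 1951 and 1927 in the Acis cisplatin libraries. Treated libraries lay below controls in both lines, with log2 fold changes of -0.38 ± 0.04 (adjusted p = 1.41e-09) and -0.18 ± 0.03 (adjusted p = 0.000247). ANLN, which encodes the scaffold anillin of the cleavage furrow, had 1049.5, 1067 and 1072 in the A2780 control libraries, 837, 897 and 889 in the A2780 cisplatin libraries, 1255, 1262 and 1209 in the Acis control libraries and 1126, 1159 and 1157 in the Acis cisplatin libraries, and fell by 0.28 and 0.12. ECT2, which activates RhoA at the furrow, fell in A2780 (-0.30). Of the spindle assembly genes, HMMR and DLGAP5 fell in A2780 (-0.24 and -0.27), and TPX2 fell in Acis (-0.19).

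Whether the lines differed in their response was tested by the interaction, the log2 fold change in Acis minus that in A2780. It passed for 11 of the 34 genes, of which 8 were positive and 3 negative, where 13.4% of all tested genes were positive and 5.48% negative. Of genes with at least 50 counts, 18.4% were positive and 6.96% negative. The positive values, where A2780 fell more, were CENPE (0.35 ± 0.07, adjusted p = 0.000556), TTK (0.33), CDK1 (0.28), ECT2 (0.26), KIF11 (0.25), TOP2A (0.20), ANLN (0.17) and CENPF (0.13), the last of which did not pass under 13 alternatives. The negative values were PLK1 (-0.33 ± 0.06, adjusted p = 0.00011), CDC20 (-0.30, adjusted p = 0.000641) and AURKB (-0.30, adjusted p = 0.00842). With DESeq2, 3 positive and 2 negative values passed, and those of TTK, CDK1, ECT2, ANLN, CENPF and AURKB did not. The value of ANLN was lost under 5 alternatives, among them leaving out A2780 cisplatin replicate 1. With total counts as library size, 5 were positive and 7 negative, and with only genes of at least 50 counts 6 were positive and 7 negative. The median interaction of all genes also moved, from 0.03 in the main fit to -0.03 and -0.01 in these fits. Shares of all genes that passed in them were not computed, so a shift particular to the 34 genes cannot be read from these counts. Over the 34 genes, Pearson's r between the changes in the 2 lines was 0.476 and Spearman's rho 0.444, as a description over genes that share libraries. In both lines 12 genes fell, against 10.0% of all tested genes and 13.9% of those with at least 50 counts. The call in Acis was lost for 5 of these 12, KIF11, NDC80, BUB1, ANLN and KIF23, under 4 to 7 alternatives each. All 5 calls were lost with total counts as library size, and with the closest pair of replicates merged in each group. For KIF11 and NDC80 the other losses are given above. For BUB1 the call was also lost on leaving out Acis control replicate 2 or 3 or Acis cisplatin replicate 2. For ANLN it was lost without Acis control replicate 2 or Acis cisplatin replicate 1, and for KIF23 without Acis control replicate 3 or Acis cisplatin replicate 1.

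The size of the response varied with gene length. Spearman's rho between gene length and log2 fold change was -0.70 over the 34 genes in A2780 and -0.26 in Acis, against -0.54 and -0.35 over 15708 tested genes with a length. In classes of length chosen after the values were seen, the 12 genes under 20 kb had a median log2 fold change of 0.08 in A2780, against 0.18 for all tested genes of that length. The 12 genes of 20 to 50 kb had -0.26, against -0.03. The 10 genes of 50 kb or more had -0.29, against -0.30 for all tested genes of that length. In Acis the medians in the same order were -0.09, -0.16 and -0.16, against 0.08, 0.03 and -0.11. Single genes departed from this order. CDK1, of 16522 bases, fell by 0.26 in A2780 and HJURP, of 21151 bases, by 0.39, while KIF4A, the longest with 130783 bases, fell by 0.24. Lengths were those of the whole GENCODE gene. The RefSeq starts of NUF2 (163321954), CENPA (26786056) and KIF11 (92593130) lay inside their GENCODE genes. These began at 163266576, 26764289 and 92574105, so the lengths of these genes are uncertain, as are the length classes of NUF2 and CENPA. KIF11 stays in the class of 50 kb or more from either start. The part of gene length in these results was not tested.

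**Figure D3:**
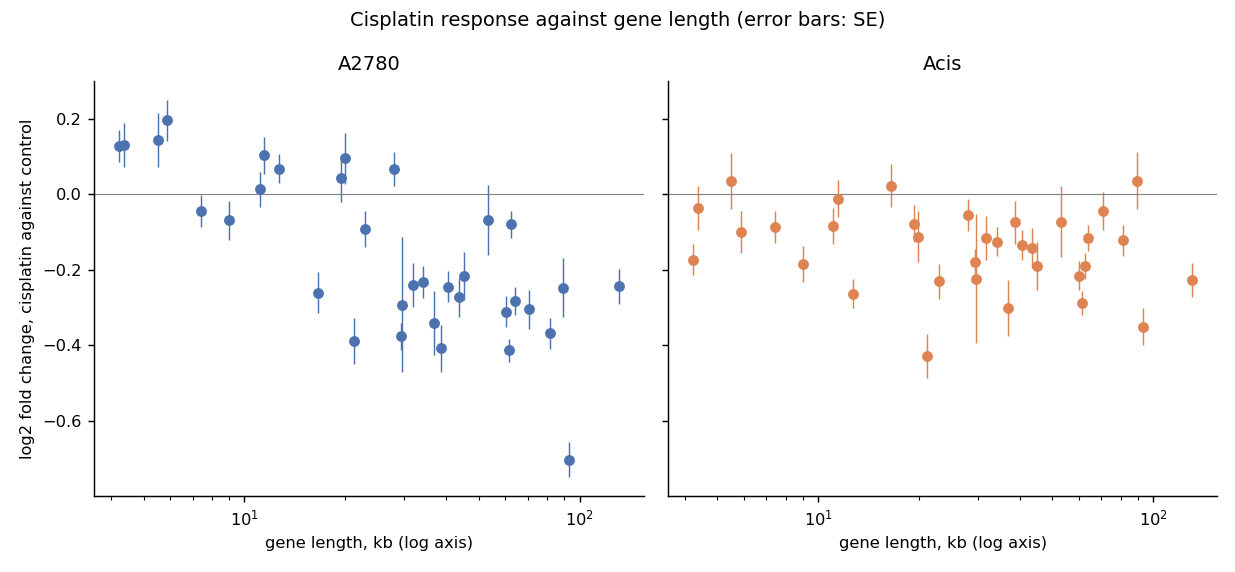
Log2 fold change of cisplatin against control, with standard errors, against gene length in kb on a log axis, for the 34 tested genes in A2780 (left) and Acis (right). In A2780 the values run from above 0 for the shortest genes to -0.70 for CENPE, and in Acis they lie mostly between 0 and -0.43 at every length.

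Without treatment, many of these genes had higher normalised counts in Acis cells. Of the 34 genes, 16 were higher and 3 lower in Acis control than in A2780 control, where 28.2% of all tested genes were higher and 30.6% lower, and of those with at least 50 counts 33.7% and 31.1%. The libraries of the 2 lines did not overlap for 21 higher and 4 lower genes, against 30.9% and 33.3% of all tested genes. The median log2 fold change was 0.14. CDC25B, a phosphatase that activates CDK1, had the largest difference, with 511, 543 and 513 in the A2780 control libraries, 605, 497 and 511 in the A2780 cisplatin libraries, 1082, 1003 and 1020.1 in the Acis control libraries and 946, 967 and 1028 in the Acis cisplatin libraries. All Acis libraries lay above all A2780 libraries, and the log2 fold change between controls was 0.99 ± 0.06 (adjusted p = 7.58e-15). CENPA (0.44), KIF20A (0.39), KIF23 (0.37), CDC20 (0.30) and PLK1 (0.29) followed. The 3 lower genes were CENPE (-0.41), CENPF (-0.38) and CDK1 (-0.19), while CCNB1 (0.07) did not pass the test (adjusted p = 0.201).

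**Figure D4:**
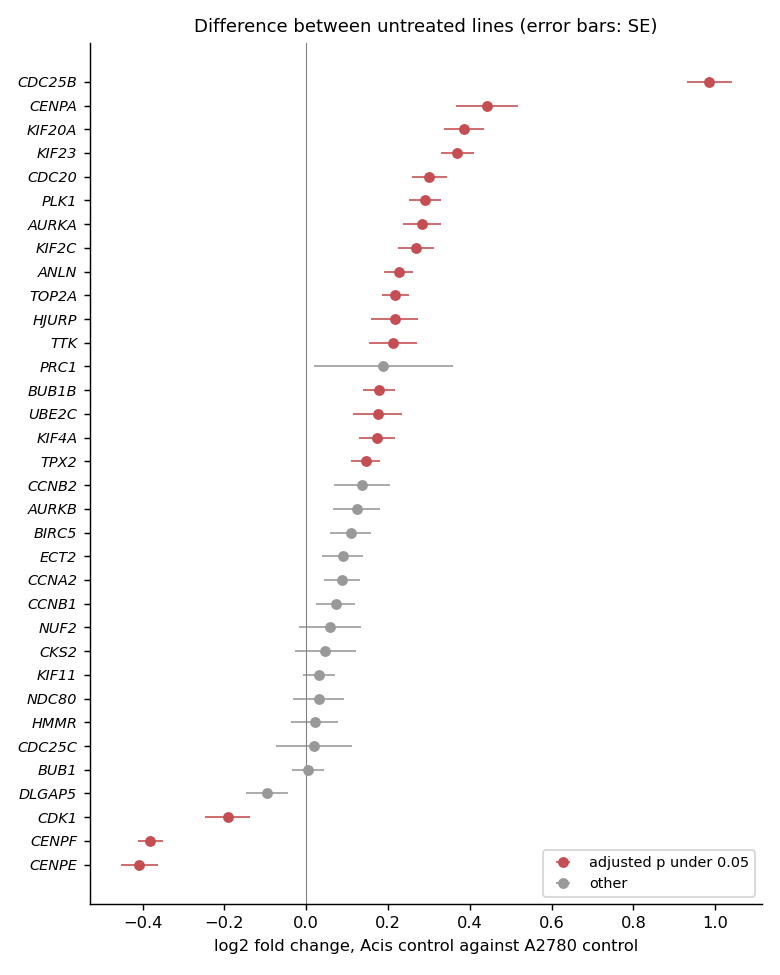
Log2 fold change of Acis control against A2780 control for the 34 tested genes, in order of size, with standard errors, and with genes of adjusted p under 0.05 in red. CDC25B lies farthest to the right at 0.99 and CENPE farthest to the left at -0.41.

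Between the treated groups, 17 of the 34 genes were higher in Acis and 2 lower, against 31.8% and 31.2% of all tested genes, and 38.4% and 29.0% of those with at least 50 counts. With DESeq2, 12 were higher and 1 lower, and 13 of the 19 calls were kept under every alternative. The call of HMMR was lost under 14 alternatives, and those of BUB1 and HJURP under 6 each. The libraries did not overlap for 17 higher and 3 lower genes, against 33.4% and 33.3% of all tested genes. CDC25B (0.87), TTK (0.54) and CENPA (0.48) were highest, with KIF23 next (0.48), and CENPF (-0.26) and AURKB (-0.17) were the 2 lower genes. PLK1, CDC20 and CENPE, which differed between the untreated lines, did not pass the test here, with log2 fold changes of -0.04, 0.00 and -0.06. The comparisons share libraries with those above.

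Other genes of the same pathway gave the setting. The counts for these lists, here and below, stand beside the shares over all tested genes. In A2780, 28.2% of tested genes fell and 21.2% rose, and in Acis 12.4% fell and 9.35% rose. Of those with at least 50 counts, 36.2% fell and 21.1% rose in A2780, and 16.8% fell and 9.75% rose in Acis. Of 16 regulators of the DREAM, MuvB and FOXM1 system, 7 fell and 2 rose in A2780, and 1 fell and 2 rose in Acis, with median log2 fold changes of -0.07 and -0.08. FOXM1, the activator of these genes in G2, had 858, 821 and 874 in the A2780 control libraries, 838, 853 and 825 in the A2780 cisplatin libraries, 1128, 1093 and 1122 in the Acis control libraries and 1002, 1003 and 1052 in the Acis cisplatin libraries. It was higher in Acis without treatment (0.39, adjusted p = 7.47e-10), fell there after cisplatin (-0.13, adjusted p = 0.0106) and had a value of -0.02 in A2780 (adjusted p = 0.71). MYBL2, which encodes B-MYB, was also higher in untreated Acis cells (0.21) and passed the test after cisplatin in neither line. RBL1, the DREAM subunit p107, fell in A2780 (-0.60).

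Of 13 tested genes that brake CDK1 or act in the G2 checkpoint, 5 rose and 3 fell in A2780, and 4 rose and 2 fell in Acis, with medians of 0.01 and 0.08. CDKN1A, which encodes p21, had 537, 524 and 533 in the A2780 control libraries, 947, 956 and 969.5 in the A2780 cisplatin libraries, 153, 154 and 149 in the Acis control libraries and 255, 253 and 299 in the Acis cisplatin libraries. It rose in both lines, on the log2 scale by 0.85 ± 0.04 in A2780 cells and by 0.82 ± 0.08 in Acis cells, from a level that was lower in Acis control (-1.80). BTG2, an antiproliferative p53 target, rose in both lines (1.37 and 1.17), as did GADD45A (0.85 and 0.62). WEE1, the kinase that inhibits CDK1, and CHEK1, the checkpoint kinase, did not pass the test in either line, with values of -0.04 and -0.14 in A2780 and 0.14 and 0.04 in Acis.

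Of 25 other spindle and cytokinesis genes, 13 fell and 1 rose in A2780 and 19 fell and 0 rose in Acis, with medians of -0.13 and -0.20, and the 0 was also 0 by DESeq2 and at an unadjusted p under 0.05. Between the untreated lines, 17 of the 25 were higher and 3 lower in Acis, against 28.2% and 30.6% of all tested genes. ASPM, a spindle pole protein, fell by 0.68 in A2780 and 0.26 in Acis, and MKI67, the proliferation antigen Ki-67, fell by 0.27 and 0.27. Of 26 other kinetochore and checkpoint genes, 11 fell and 1 rose in A2780 and 2 fell and 0 rose in Acis (also 0 by DESeq2 and 1 at an unadjusted p under 0.05), with medians of -0.11 and 0.05 and with KNL1, a kinetochore scaffold, falling in both (-0.56 and -0.23). Of 8 condensin subunits, 6 fell and 1 rose in A2780 and 2 fell and 1 rose in Acis (medians -0.21 and -0.06). Of 17 APC/C subunits and regulators, 6 fell (35.3%) and 3 rose (17.6%) in A2780 (median -0.10). In Acis 3 of them fell (17.6%) and 2 rose (11.8%), with a median of 0.02. These shares lay near those of tested genes with at least 50 counts, at 36.2% and 21.1% in A2780 and 16.8% and 9.75% in Acis. Of 22 genes of the G1/S transition, 8 rose and 1 fell in A2780 and 6 rose and 0 fell in Acis by edgeR (also 0 by DESeq2 and at an unadjusted p under 0.05), with medians of 0.08 and 0.07, among them UNG, a base excision repair gene (0.26 and 0.26).

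In the ATAC-seq peak lists, 32 of the 35 genes had a peak within 1000 bases of the GENCODE start in each of the 4 conditions, against 69.4% of tested genes in untreated and 70.5% in treated A2780 cells, and 63.1% in untreated and 67.1% in treated Acis cells. CDC25B, NUF2 and NUSAP1 had none. At the RefSeq start, used for the 30 genes with a promoter window, 29 had a peak in every list and CDC25B had none. Of 10431 tested genes with such a start, 82.1% had a peak in untreated and 83.8% in treated A2780 cells. In Acis cells these shares were 75.6% and 80.1%. The median fold enrichment of the strongest peak was 20.2 in untreated and 16.8 in treated A2780 cells and 23.4 in untreated and 20.7 in treated Acis cells, against 14.7, 11.5, 16.9 and 15.7 for all tested genes with a peak. The peak of CENPE had a fold enrichment of 18.6, 12.2, 20.7 and 16.4 in the same order, and that of CDK1 had 23.3, 19.6, 26.6 and 25.9. There was 1 list per condition, so the differences between conditions have no replicate check, and the median over all genes moved in the same direction.

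**Figure D5:**
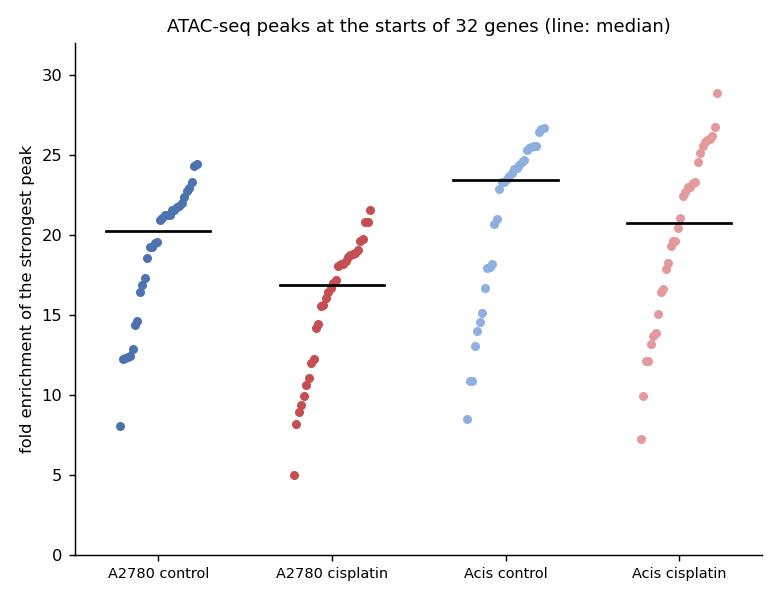
Fold enrichment of the strongest ATAC-seq peak within 1000 bases of the start of each of the 32 genes that had one (points, in order of size), with the median as a line, in the 4 peak lists. The medians are 20.2, 16.8, 23.4 and 20.7 from left to right.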

How the data were processed

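RNA-seq counts were deposited raw by the authors, who aligned reads with STAR 2.7.3, removed PCR duplicates and counted reads per gene with HTSeq 0.11.1 on hg38. The fold enrichment (ratio over local background) of ATAC-seq peaks and their -log10 p and q values were computed by the authors with MACS2, and peaks were deposited as 1 list per condition from overlapping replicates. XR-seq was not analysed here. Counts were fitted in R 4.3.3 with edgeR 4.0.16 (TMM, default filter on low counts, quasi-likelihood test over 4 groups and 12 libraries, Benjamini-Hochberg adjustment over 15760 genes), and calls used an adjusted p-value under 0.05. Normalised counts were scaled to the mean effective library size. DESeq2 1.42.0 was an alternative. Gene positions came from GENCODE 44. Python 3.11.15 with pandas 2.3.3 was used for peaks, promoters and summaries, and matplotlib 3.10.9 for plots. The edgeR fit was tested on simulated data.

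The members, lists and role groups were chosen with earlier results of these data known. All members could be named. Values in every library were given for the genes with the 3 highest and 3 lowest called fold changes of each comparison and for CDK1, CCNB1, CDC20, PLK1 and TOP2A, and at most 5 genes of each other list with the smallest adjusted p-values were named, beside FOXM1, MYBL2, CDKN1A, WEE1 and CHEK1. Replicates were separate wells of the same line, and pairs of replicates differed by 0.73 to 1.53 times the counting noise, so p-values measure the spread between these libraries only.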

Additional observations from a re-analysis of the deposited data

Results flagged for a closer look

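The response to cisplatin differed between the 2 lines, by the interaction term of edgeR, for 11 of the 34 tested genes, on the log2 scale as the change in Acis minus the change in A2780. The differences were -0.33 for PLK1, -0.30 for CDC20, -0.30 for AURKB, 0.13 for CENPF, 0.17 for ANLN, 0.20 for TOP2A, 0.25 for KIF11, 0.26 for ECT2, 0.28 for CDK1, 0.33 for TTK and 0.35 for CENPE. With DESeq2, 2 negative and 3 positive differences passed, and the difference of CENPF also missed the threshold on leaving out any 1 of 8 libraries. Groups of 3 samples were not tested for a sample that stands apart.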

How the results depend on the processing

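Under up to 20 alternatives, no called gene changed direction in any comparison. Of the 17 genes that fell in Acis, 12 kept the call under every alternative. The number of the 34 genes that rose in A2780 was 2, and became 0 with DESeq2, 10 with total counts as library size, 1 with no filter on low counts, 8 with only genes of at least 50 counts per library, 1 with the closest pair of replicates merged in each group and 4 with only the libraries of the 2 groups. Leaving out each library in turn gave 1 to 4 genes that rose and 17 to 19 that fell in A2780, with 1 without A2780 control replicate 3 or A2780 cisplatin replicate 2 and 4 without A2780 cisplatin replicate 1. It gave 0 that rose and 13 to 19 that fell in Acis, 15 to 16 higher and 3 to 3 lower in Acis control, 13 to 17 higher and 1 to 2 lower in Acis cisplatin than in A2780 cisplatin, and 6 to 9 positive and 3 to 4 negative interactions. With DESeq2, 12 genes were higher and 1 lower in Acis cisplatin than in A2780 cisplatin. Positive interactions numbered 3 with DESeq2 and 5 with total counts, and negative interactions numbered 7 with total counts and 7 with only genes of at least 50 counts. The cause of these changes was not tested. Shares over all genes were not computed under the alternatives, so these counts have no background there. On the given strand only, CCAAT was found in 14 of 30 windows, against 21.9% of the windows of tested genes. At least 2 CCAAT were found in 7, against 6.20%. CHR letters were found there in 20, against 6.82%, and both kinds of letters in 12, against 1.75%. The replicate block left 18 genes that fell and 2 that rose in A2780 and 18 that fell in Acis. None of 18 correlations between same-numbered libraries, of deviations from group means, was over 0.1 (range -0.059 to 0.095). Replicates differed by about the counting noise, so these correlations cannot show whether same-numbered libraries were paired. The RefSeq start for peaks was chosen after seeing the data. The standard error of the log2 fold change in A2780 was 0.18 for PRC1, with 489 counts in all, and 0.03 for CENPF.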
